A study of Homo sapiens with 3 samples.

Results

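The genes described here carry newly made proteins into the endoplasmic reticulum (ER), trim and glycosylate them there, and move them on to the Golgi. They were read in KYSE150 cells, a cell line from a human oesophageal squamous carcinoma, on 3 Affymetrix arrays. Members were listed by name for their role, with earlier results of these data known. Of 42 genes listed, 40 had a probe set assigned to that gene alone, out of 18132 genes on the array with such a probe set. SEC61G, a small subunit of the translocon, and KDELR2, a KDEL receptor, had none and are not described by value. Each gene was read by its brightest probe set over the 3 arrays. All 40 lay above the filter on dim genes, a mean of log2 5.27, which 12232 genes passed.

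The cells had received the empty vector (control), a plasmid for wild-type LOXL2 (LOXL2 WT) or a plasmid for a form that the labels call LOXL2 delta72 and do not describe further. All were grown in medium with 10% fetal calf serum, and RNA was taken 48 h after transfection. LOXL2, lysyl oxidase like 2, is itself a secreted enzyme that enters the ER. Each condition was 1 array, so no difference below has a replicate check and no test between conditions can be made. "Higher" and "lower" describe these arrays. In bulk RNA of transfected cells, the share of cells that took up a plasmid and the response of each such cell cannot be told apart.

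As background, a signal sequence on a growing protein is bound by the signal recognition particle (SRP), which docks on the SRP receptor at the ER. The protein passes through the SEC61 translocon, its signal sequence is cut by signal peptidase, and oligosaccharyltransferase adds glycans to it. Folded cargo leaves in vesicles with a COPII coat, helped by cargo receptors, and escaped ER proteins are brought back by KDEL receptors. Many of these genes are known targets of the unfolded protein response, in which the factors XBP1 and ATF6 act on promoters of secretory genes.

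The transfected gene was read first. LOXL2 read log2 7.46 with vector, 14.05 with LOXL2 WT and 14.06 with LOXL2 delta72 on its brightest probe set. The squamous and epithelial markers with a probe set of their own, 6 of 9 listed, all passed the filter, and those read from log2 6.95 to 11.95. Of the markers of other cell types, 1 of 6 for fibroblasts, 3 of 4 for endothelium and 1 of 5 for leukocytes passed it, and none of these read above 6.08. Background probe sets, which match no transcript, differed by up to 0.29 between WT and control, 0.17 between delta72 and control and 0.15 between delta72 and WT (log2). Members past these sizes in either direction were 10 of 40 (25%), 17 (42.5%) and 2 (5%), beside 21.7%, 36% and 20.6% of all genes, so the first pair of shares lies near that of all genes.

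The promoters of the members were searched for motifs through which ER stress factors are known to act, since the pathway is a known target of that response. RefSeq promoter windows (GRCh38.p14, 250 bases before to 50 bases after a start) were found for 36 of the 42 genes. Some genes had several windows, and a gene was counted where any of them held the motif. The motif TGACGTGG, known as the unfolded protein response element, was present on either strand in 6 of these 36 (16.7%), against 0.927% of all 27305 genes with a window and 1.05% of the protein-coding ones. Of 20 ER chaperone genes listed, 19 had a window, and 2 of these held it (10.5%), HYOU1 and TXNDC5. These 19 are not quite the same genes as the 19 chaperones described by value at the end, which lack TXNDC5. The 6 stretches are shown 5′ to 3′ on the gene's strand, with the motif in capitals; CCACGTCA is the same motif read on the opposite strand.
SEC62: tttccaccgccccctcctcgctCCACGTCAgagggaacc
SSR3: tctgataacagCCACGTCAgcaaggaaact
SSR4: tcagggaggggCCACGTCAgtgctgccaga
SEC23A: ctcacgccccgtcccctcctctTGACGTGG
SEC24A: gtgagagtcggTGACGTGGcggcgaggccg
KDELR3: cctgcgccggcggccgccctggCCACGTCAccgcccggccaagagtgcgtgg

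In the same order these stretches lie at chr3:169966768-169966806 (plus strand), chr3:156554148-156554177 (minus), chrX:153794528-153794557 (plus), chr14:39103232-39103261 (minus), chr5:134648595-134648624 (plus) and chr22:38468028-38468079 (plus). The motif begins 17 bases before the start of the gene in SEC62, 4 in SEC23A and 46 in KDELR3. In the others the window belongs to a start inside the gene, 992 bases from its outermost start in SSR3, 509 in SSR4 and 403 in SEC24A. The motif begins 41, 129 and 179 bases before those inner starts, within the annotated gene. Which start these cells used was not tested. Holding it did not go with a single direction on the arrays. With LOXL2 WT, SEC62 differed from control by 0.32 on the log2 scale, SEC24A by 0.30 and SSR4 by 0.12, while SSR3 was at -0.09, KDELR3 at -0.05 and SEC23A at -0.13. With LOXL2 delta72, SEC62 differed by 0.35, SEC24A by 0.31, SSR4 by 0.24, SSR3 by 0.06 and KDELR3 by 0.01, while SEC23A was at -0.09. All values below 0 here were smaller in size than the largest background difference, 0.29 with LOXL2 WT and 0.17 with LOXL2 delta72. So were those of SSR4 with LOXL2 WT and of SSR3 and KDELR3 with LOXL2 delta72. The other probe sets of SSR3 read above control with both plasmids, and those of SEC24A lay below its brightest one.

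The longer ER stress element, CCAAT and CCACG with 9 bases of any kind between them, was in the window of 0 of the 36 members and in 0.0916% of all genes. ER stress element II, ATTGG and CCACG with 1 base between them, was in 0 of 36 and 0.0696%, and TGACGTCA, the cAMP response element, in 0 of 36 and 2.25%. ER chaperones are the genes best known for the first element. Of the 19 chaperone genes with a window, 6 held it, 2 held ER stress element II and 0 the cAMP response element. The stretch of HSPA5, which encodes the main ER chaperone BiP, is shown for comparison with the fixed letters in capitals (chr9:125241369-125241431, minus strand).
HSPA5: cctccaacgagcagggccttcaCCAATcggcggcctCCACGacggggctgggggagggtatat

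SRPRB and SEC11C had the largest differences of all members, described below, and held none of these 4 motifs. Bases before their window's start are shown with the letters CCACG, or CGTGG on the opposite strand, in capitals, the run that ends the ER stress element (chr3:133805785-133805814 and chr18:59139784-59139883, both plus strand). For SEC11C these are the 100 bases before the gene. For SRPRB they are the 30 bases before an inner start, 21792 bases inside the gene as annotated, the only start with a window here. CCACG alone is common: it lay in a window of 30 of 36 members (83.3%), 42.1% of all genes and 50.2% of protein-coding genes. It overlaps TGACGTGG, and it was added to the search after the values were seen.
SRPRB: ccgcgcctgcgcagagtgcagggCCACGtc
SEC11C: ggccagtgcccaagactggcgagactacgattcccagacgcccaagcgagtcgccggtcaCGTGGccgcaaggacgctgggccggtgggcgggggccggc

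A match in such a window is a run of letters, not a site shown to be bound, and a window without a match says nothing about the factor.

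Across the 40 genes most differences were small, and the larger ones were all on the higher side. With LOXL2 WT, 6 genes were at least 25% higher than control on the linear scale (15% of 40, against 9.92% of all 12232 genes) and 0 were lower by the same fold, that is by at least 20% (7.12% of all genes). The 6 were SRPRB, SPCS2, SEC11C, STT3A, STT3B and SAR1B. With LOXL2 delta72, 7 genes were at least 25% higher (17.5%, against 7.52%) and 0 lower (against 4.72%), namely SRPRB, SEC62, SEC63, SPCS2, SEC11C, STT3A and TMED2. SRPRB, SPCS2, SEC11C and STT3A were at least 25% higher with both plasmids. Both comparisons use the same control array and are no repeat of each other. These counts have no test, since each condition had 1 array. Among the 6704 genes whose mean lay within the range of the members' means, log2 7.62 to 12.17, 11.2% were higher and 6.13% lower by this size with LOXL2 WT, and 8.35% higher and 4.31% lower with LOXL2 delta72.

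At least 1.5-fold, 2 genes were higher with each plasmid, SRPRB and SEC11C (5% of 40, against 1.85% of all genes with LOXL2 WT and 1.28% with LOXL2 delta72). The number lower by 1.5-fold was 0 in both comparisons, against 0.867% and 0.499%. Among the genes in the range of the members' means, 1.79% were higher and 0.716% lower by 1.5-fold with LOXL2 WT, and 1.27% and 0.447% with LOXL2 delta72. The median difference over the 40 genes was 0.059 with LOXL2 WT and 0.067 with LOXL2 delta72, beside -0.0094 and 0.00 over all genes. Background probe sets reached differences larger than both medians. With LOXL2 WT 22 of 40 genes differed by more than 0, beside 48.0% of all genes, and with LOXL2 delta72 28 of 40, beside 49.7%. With an equal median on the arrays, described next, the latter count was 23 of 40.

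The split of calls over all genes depended on how the arrays were scaled. As deposited, 58.2% of the genes at least 25% higher or 20% lower with LOXL2 WT and 61.5% with LOXL2 delta72 were higher. When the arrays were instead given an equal median over the 12232 genes, called the common median below, these were 43.9% and 48.5%. That shift lowered each WT difference by 0.041 and each delta72 difference by 0.033, and left 4 members at least 25% higher in each comparison (7.82% and 5.93% of all genes) and 0 lower.

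Which genes were at least 25% higher depended in part on scaling and probe set choice. SRPRB stayed past this size with both plasmids under all 8 alternatives. SAR1B with LOXL2 WT and SEC63 and STT3A with LOXL2 delta72 also did so under all 8. SEC11C did so under all 7 that gave it a value. Not all alternatives could move a value, since the 2 other filters leave every value of a member unchanged. STT3A has 1 probe set, so the 3 other probe set summaries leave it unchanged too. SEC11C had no value for its second brightest probe set, which lay below the filter and gave 0.29 and 0.18. SEC62 with LOXL2 delta72 kept it under 4 of 8, with values from 0.12 to 0.35, and the common median and all 3 other probe set summaries brought it below. STT3A with LOXL2 WT and SPCS2 with LOXL2 delta72 fell short under each of the 3 other scalings, down to 0.28 and 0.29. SPCS2 with LOXL2 WT, at 0.30, and TMED2 with LOXL2 delta72, at 0.31, fell short with the common median alone. STT3B with LOXL2 WT fell short under the 3 other probe set summaries, down to 0.03. Each of those 3 summaries also brought further genes past this size. Common to all 3 were SEC61A1 and SEC63 with LOXL2 WT, and SEC61A1, SSR3 and SAR1B with LOXL2 delta72. With LOXL2 WT these summaries left 8 or 9 members at least 25% higher, beside 8.69% to 10.3% of all genes. With LOXL2 delta72 they left 9 or 10, beside 6.41% to 7.49%.

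**Figure D1:**
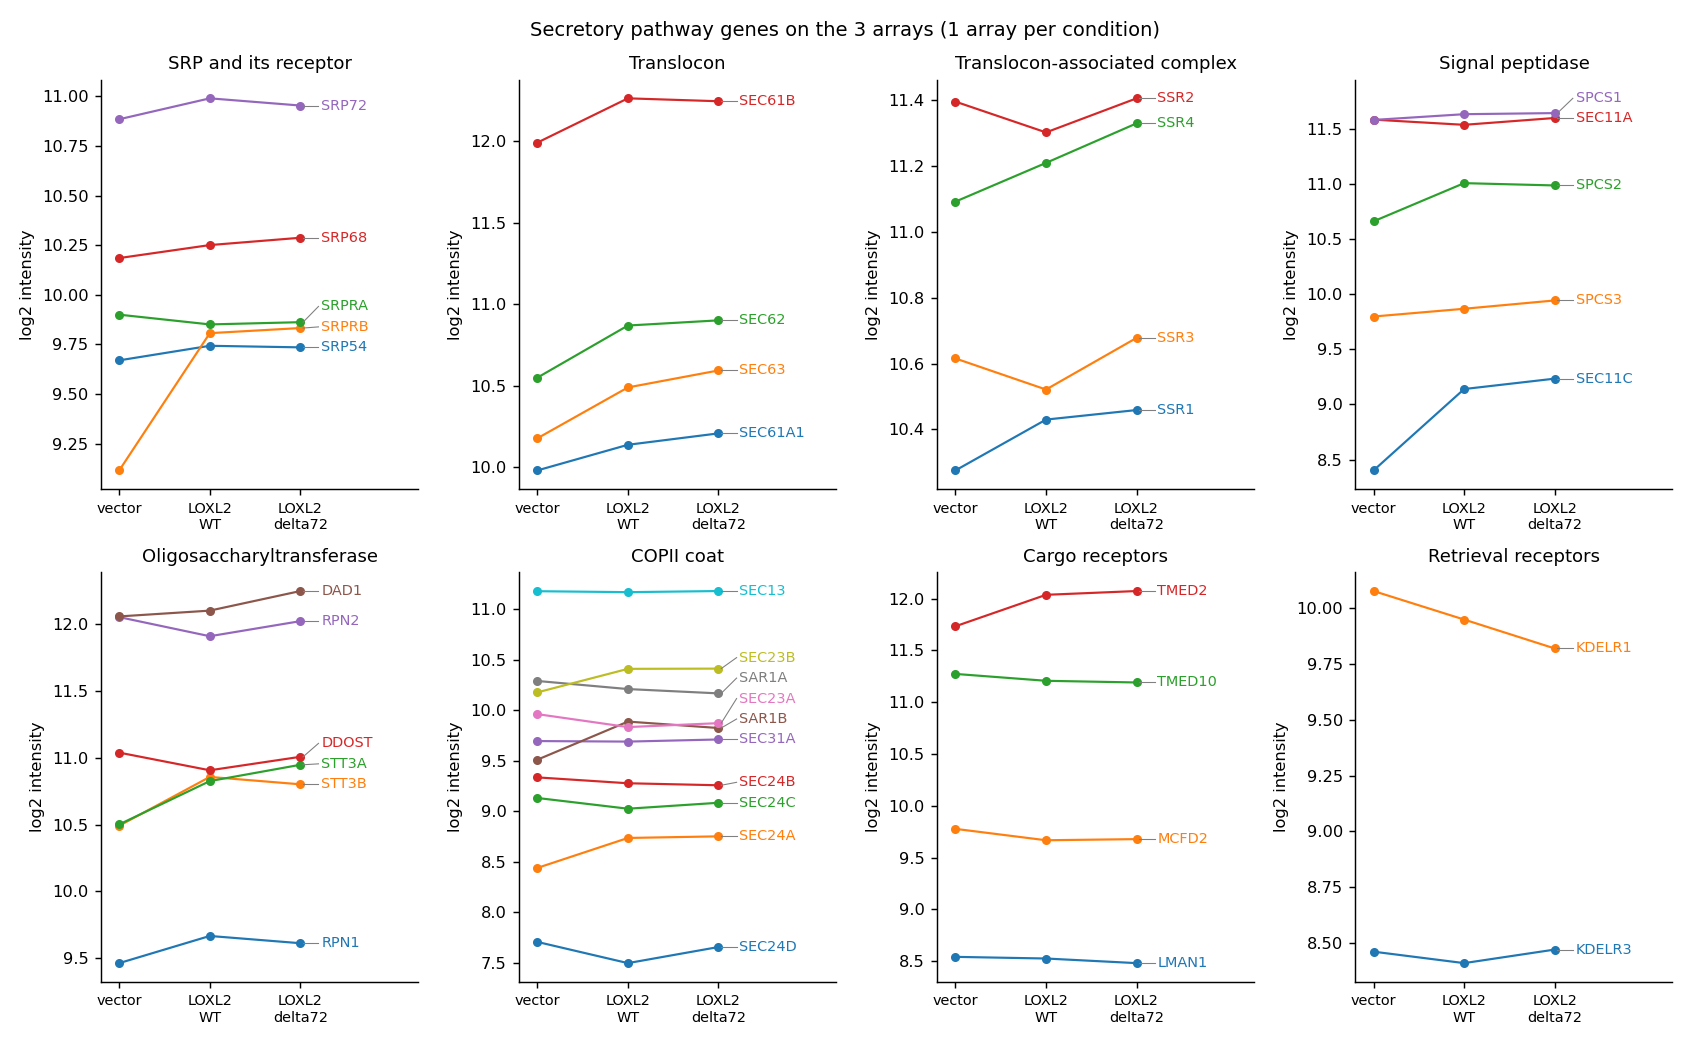
Log2 intensity (vertical axis, scaled separately in each panel) of 40 secretory pathway genes on the vector, LOXL2 WT and LOXL2 delta72 arrays, 1 array per condition, with 1 panel for each of 8 role groups and 1 line per gene. SRPRB and SEC11C have the steepest lines from vector to LOXL2 WT, and from there to LOXL2 delta72 all 40 lines move by 0.16 or less.

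At the first step, docking at the ER, the receptor subunit SRPRB stood apart from the other members of its role group. Of the SRP genes outside the members, SRP19 was also higher, at 0.52 and 0.52, while SRP9 and SRP14 lay slightly below control. SRPRB anchors the SRP receptor in the ER membrane. It read log2 9.12 with vector, 9.81 with LOXL2 WT and 9.83 with LOXL2 delta72. Both LOXL2 arrays were therefore higher than the vector array and nearly equal to each other. The differences from control were 0.69 (1.62-fold; SD 0.32 over 3 probe sets) and 0.72 (1.64-fold; SD 0.29). Its second probe set gave 0.79 and 0.71, and the dimmest gave 0.19 and 0.22, so the direction was shared and the size was not. The SD over probe sets is error between probes on the same arrays and holds no error between cultures.

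SRPRA, the subunit that pairs with SRPRB and contacts SRP, read 9.90, 9.85 and 9.86. Its difference was -0.05 with LOXL2 WT and -0.04 with LOXL2 delta72, with 4 of 5 probe sets below 0 with LOXL2 WT. SRPRB thus exceeded SRPRA by 0.74 and 0.76 in difference from control. The SRP proteins SRP54, which binds the signal sequence, SRP68 and SRP72, which bind the SRP RNA, differed from control by 0.07 to 0.11 with LOXL2 WT and by 0.07 to 0.10 with LOXL2 delta72.

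All 4 translocon genes with a probe set of their own read above control with both plasmids, and this held on each of their 16 probe sets. SEC62 and SEC63 assist the SEC61 channel, SEC63 by recruiting BiP to it. SEC63 read 10.18 with vector, 10.49 with LOXL2 WT and 10.59 with LOXL2 delta72. The differences were 0.31 (SD 0.04 over 3 probe sets) and 0.42 (SD 0.02), or 1.24-fold and 1.33-fold, and its 3 probe sets lay close together. SEC62 read 10.55, 10.87 and 10.90, which is 0.32 (SD 0.14 over 9 probe sets) and 0.35 (SD 0.12) above control. Its probe sets ranged from 0.13 to 0.63 with LOXL2 WT and from 0.12 to 0.49 with LOXL2 delta72.

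On the probe sets used, the channel genes themselves differed less. SEC61A1, the pore-forming subunit, read 9.98, 10.14 and 10.21, 0.16 and 0.23 above control. Its dimmer probe sets gave 0.40 and 0.46 with LOXL2 WT and 0.34 and 0.47 with LOXL2 delta72. The median of its probe set differences was 0.40 and 0.34, beside 0.41 and 0.29 for SEC62 and 0.37 and 0.42 for SEC63. SEC61B, a small subunit of the channel with 1 probe set, read 11.99, 12.26 and 12.24, or 0.27 and 0.25 above control. The group median was 0.29 with LOXL2 WT and 0.30 with LOXL2 delta72, with no gene lower than 0.16.

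The genes of the translocon-associated protein complex, SSR1 to SSR4, differed little from control, from -0.09 to 0.15 with LOXL2 WT and from 0.01 to 0.24 with LOXL2 delta72. This complex sits beside the translocon and helps some signal sequences to enter. SSR4 read 11.09 with vector, 11.21 with LOXL2 WT and 11.33 with LOXL2 delta72. SSR2 read 11.40, 11.30 and 11.41, and its difference of 0.01 with LOXL2 delta72 turned to -0.02 with the common median. For SSR3 the choice of probe set mattered. Its brightest one gave -0.09 and 0.06, and the other 3 gave 0.17 to 0.22 with LOXL2 WT and 0.31 to 0.40 with LOXL2 delta72.

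Signal peptidase held the largest difference of all 40 genes, in SEC11C. SEC11C and SEC11A are alternative catalytic subunits of the enzyme. SEC11C read 8.40 with vector, 9.14 with LOXL2 WT and 9.23 with LOXL2 delta72. Both LOXL2 arrays lay above the vector array by 0.74 (1.67-fold) and 0.83 (1.78-fold). Of all 12232 genes, 99.3% had a lower WT difference and 99.7% a lower delta72 difference. It had 1 probe set above the filter, and a second one, dimmer than the filter value, gave 0.29 and 0.18. SEC11A read 11.58, 11.53 and 11.60, so its difference was -0.05 with LOXL2 WT and 0.01 with LOXL2 delta72, the latter turning to -0.02 with the common median.

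On their brightest probe sets the non-catalytic subunits lay between SEC11A and SEC11C, with SPCS1 close to SEC11A. SPCS2 read 10.66 with vector, 11.01 with LOXL2 WT and 10.98 with LOXL2 delta72. It was higher on both LOXL2 arrays by 0.35 (1.27-fold; SD 0.06 over 2 probe sets) and 0.33 (SD 0.09). SPCS1 differed by 0.05 and 0.06. SPCS3 differed by 0.07 and 0.15 on its brightest probe set, with its dimmest one at 0.50 and 0.34.

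**Figure D2:**
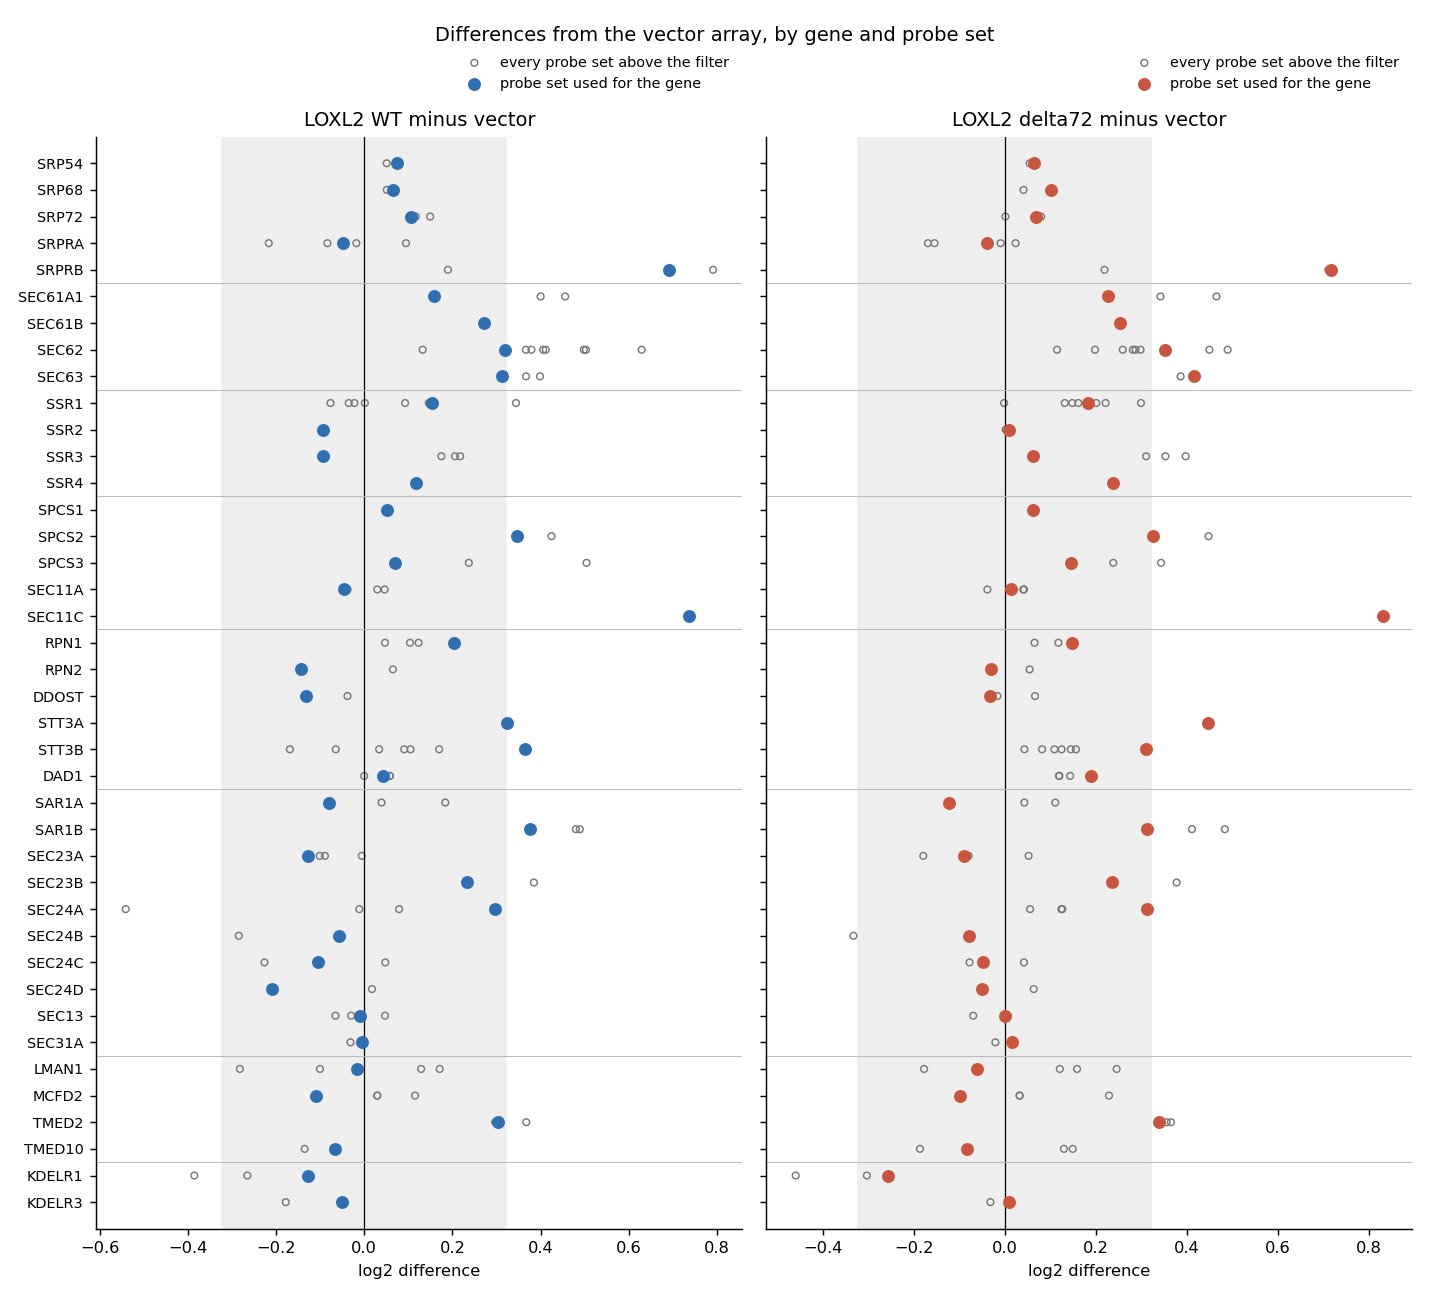
Log2 difference from the vector array (horizontal axis) for LOXL2 WT (left) and LOXL2 delta72 (right). Filled points are the probe set used for each of 40 genes, open points are all of their 128 probe sets above the filter, and the grey band ends at 25% higher and 20% lower. SRPRB and SEC11C lie farthest to the right in both panels, the open points of SEC63 and TMED2 lie close to the filled ones, and those of STT3B and SEC24A lie mostly to the left of them.

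In the oligosaccharyltransferase, which transfers glycans to asparagines, the catalytic subunits read higher and the shared subunits did not all do so. STT3A, the catalytic subunit of the complex that works at the translocon, read 10.50 with vector, 10.83 with LOXL2 WT and 10.95 with LOXL2 delta72. Its differences were 0.32 and 0.45 (1.36-fold with LOXL2 delta72) on its only probe set. STT3B, the catalytic subunit of the complex that acts after translocation, read 10.49, 10.86 and 10.80, or 0.37 and 0.31 above control. Its other 6 probe sets were lower than that, from -0.17 to 0.17 with LOXL2 WT and from 0.04 to 0.16 with LOXL2 delta72. The median over its 7 probe sets was 0.09 and 0.13, so the higher reading of STT3B rests on its brightest probe set.

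Of the subunits common to both complexes, DDOST read 11.04, 10.91 and 11.01, a difference of -0.13 and -0.03. RPN2 differed by -0.14 and -0.03, RPN1 by 0.20 and 0.15, and DAD1 by 0.04 and 0.19. The 4 probe sets of RPN1 were all above 0 in both comparisons.

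The COPII coat genes split within their paralogs, and their median difference was -0.034 with LOXL2 WT and -0.023 with LOXL2 delta72. SAR1A and SAR1B encode the small GTPases that start coat assembly. SAR1B read 9.51 with vector, 9.89 with LOXL2 WT and 9.82 with LOXL2 delta72. It was higher on both LOXL2 arrays by 0.38 (1.30-fold; SD 0.06 over 3 probe sets) and 0.31 (1.24-fold; SD 0.09), and its other probe sets gave 0.41 to 0.49. SAR1A read 10.29, 10.21 and 10.17, a difference of -0.08 and -0.12, while its other probe sets gave 0.04 and 0.18 with LOXL2 WT and 0.04 and 0.11 with LOXL2 delta72. SAR1B exceeded SAR1A by 0.46 and 0.44 in difference from control.

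The inner coat genes SEC23A and SEC23B, which activate the GTPase of SAR1, parted in the same way. SEC23B differed by 0.23 with LOXL2 WT and by 0.24 with LOXL2 delta72, and its second probe set gave 0.38 and 0.38. SEC23A differed by -0.13 and -0.09. Of the SEC24 genes, which select cargo, SEC24A differed by 0.30 and 0.31, SEC24B by -0.06 and -0.08, SEC24C by -0.11 and -0.05, and SEC24D by -0.21 and -0.05. The reading of SEC24A was not shared by its other 3 probe sets, which ranged from -0.54 to 0.08 with LOXL2 WT and from 0.06 to 0.13 with LOXL2 delta72. SEC24C had probe sets on both sides of 0 with each plasmid. The other probe set of SEC24D above the filter gave 0.02 and 0.06, and that of SEC24B -0.28 and -0.33. The outer coat genes SEC13 and SEC31A stayed within 0.02 of control with both plasmids.

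SAR1B and SEC24A are neighbours on chromosome 5 in GRCh38.p14, the former at chr5:134601149-134632828 on the minus strand and the latter at chr5:134648382-134727909 on the plus strand, so that they point away from each other. The gap between them is 15553 bases and holds RNU6-1311P in the annotation. This pair was the closest of all members on the genome.

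The cargo receptors showed no shared direction. TMED2, a p24 protein of COPII and COPI vesicles, read 11.73 with vector, 12.04 with LOXL2 WT and 12.07 with LOXL2 delta72. It was higher on both LOXL2 arrays by 0.30 (1.23-fold; SD 0.04 over 3 probe sets) and 0.34 (1.27-fold; SD 0.01), with closely agreeing probe sets. Its partner TMED10 differed by -0.07 and -0.08, and with LOXL2 delta72 its probe sets ranged from -0.19 to 0.15. LMAN1 and MCFD2 together carry coagulation factors V and VIII out of the ER. MCFD2 read 9.78, 9.67 and 9.68, a difference of -0.11 and -0.10, and LMAN1 differed by -0.02 and -0.06, each with probe sets on both sides of 0.

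Of the KDEL receptors, which return escaped chaperones from the Golgi, KDELR1 had the lowest difference from control of all members with LOXL2 delta72. It read 10.08 with vector, 9.95 with LOXL2 WT and 9.82 with LOXL2 delta72. Its differences were -0.13 (SD 0.13 over 3 probe sets) and -0.26 (SD 0.11), and all 3 probe sets were below 0 in both comparisons, down to -0.39 and -0.46. KDELR3 read 8.46, 8.41 and 8.47. Its difference was -0.05 with LOXL2 WT and 0.01 with LOXL2 delta72, and the latter turned to between -0.02 and -0.01 under each of 3 other scalings.

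Between the LOXL2 forms, a comparison made without the vector array, the secretory genes differed least. At least 25% higher were 0 of 40 genes (1.55% of all genes), and at least 20% lower were 0 (0.981%), with LOXL2 delta72 than with LOXL2 WT. At 1.5-fold the number was also 0 in both directions, against 0.18% and 0.0409% of all genes. In the range of the members' means, 0.82% of genes were higher and 0.388% lower by the smaller size, and 0.119% higher and 0 lower by 1.5-fold. The differences ran from -0.13 for KDELR1 to 0.16 for SEC24D, with a median of 0.027 and 28 of 40 genes above 0. Over all genes the median was 0.0013 and 50.4% lay above 0. The 3 genes next to SEC24D were SSR3 at 0.16, DAD1 at 0.15 and STT3A at 0.12. SRPRB differed by 0.03 between the forms and SEC11C by 0.09. All 4 SSR genes read higher with LOXL2 delta72, by 0.03 to 0.16, and 14 of their 15 probe sets above the filter did so too.

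**Figure D3:**
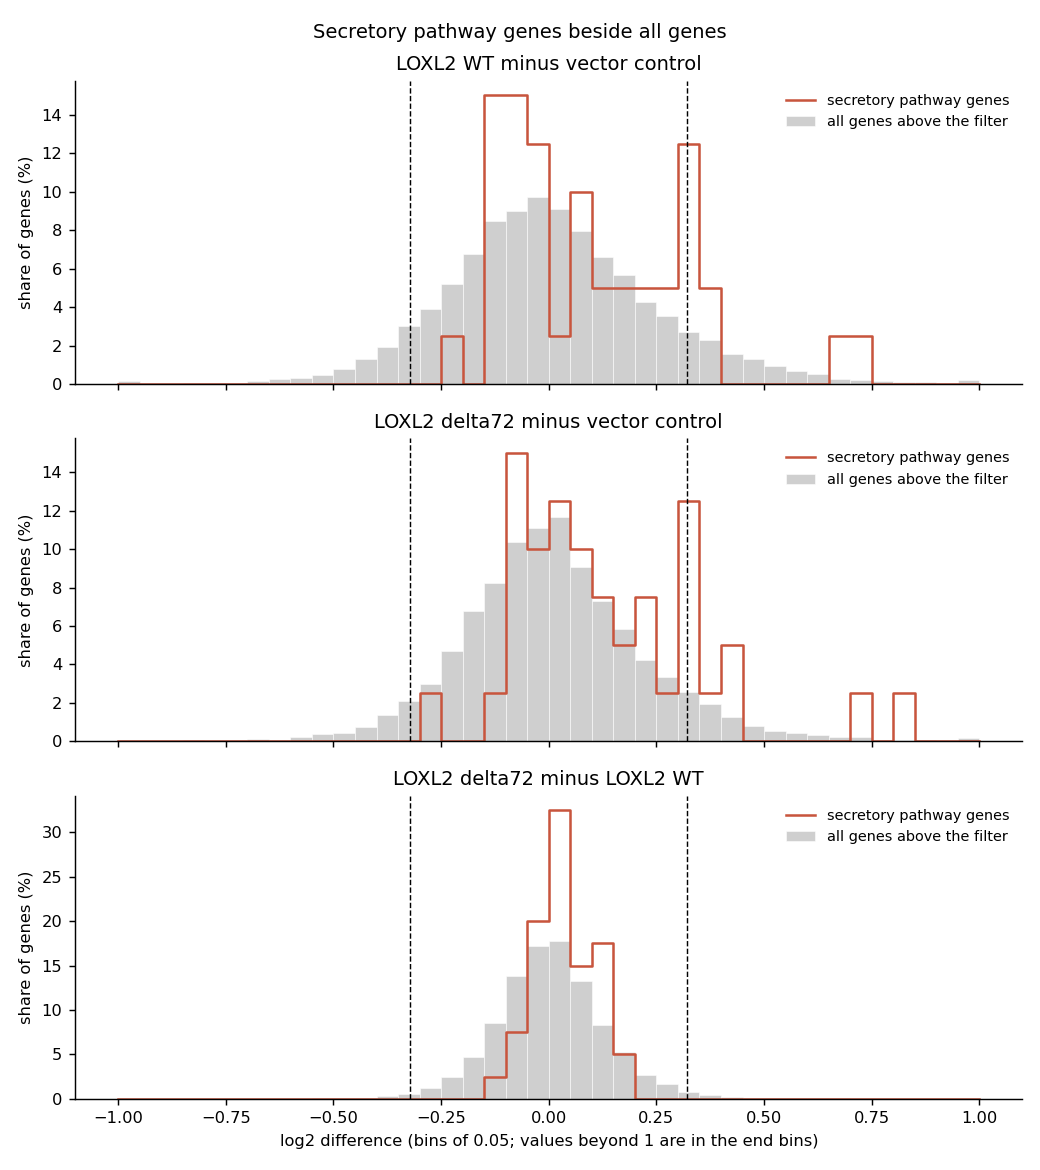
Share of genes (vertical axis, %) by log2 difference in bins of 0.05 (horizontal axis) for LOXL2 WT minus vector, LOXL2 delta72 minus vector and LOXL2 delta72 minus LOXL2 WT. Grey bars are all 12232 genes above the filter, the red line is the 40 secretory pathway genes, and dashed lines mark 25% higher and 20% lower. In the upper panels 6 and 7 secretory genes lie beyond the right line and 0 beyond the left, and in the lowest panel all 40 lie between the lines.

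The agreement of probe sets was counted over the members. Of 35 genes with more than 1 probe set above the filter, all probe sets had the same sign in 21 with LOXL2 WT (13 higher and 8 lower) and in 20 with LOXL2 delta72 (18 higher and 2 lower). Of the genes at least 25% higher, this held for 3 of 4 with LOXL2 WT, the exception being STT3B, and for 5 of 5 with LOXL2 delta72. Over the 128 probe sets, 25 were at least 25% higher and 2 at least 20% lower with LOXL2 WT, and 23 higher and 2 lower with LOXL2 delta72. Of all 27189 probe sets above the filter that name 1 gene, 10.7% were higher and 7.47% lower with LOXL2 WT, and 7.63% and 5.02% with LOXL2 delta72. Probe sets of a gene share its transcripts and are not replicates. The probe sets used for SEC61A1, RPN1, SAR1B and SEC13 carry the suffix x, which Affymetrix gives to sets that may also bind unrelated transcripts. A further 13 carry the suffix s, given to sets that match several transcripts: those of SRPRB, SEC63, SSR1, SPCS2, SEC11A, STT3B, SAR1A, SEC24A, SEC31A, MCFD2, TMED2, TMED10 and KDELR1. Which transcripts these sets bind was not tested.

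Other genes of the same steps were read from lists of named genes. The shares of all genes to set beside their counts are those given above, 9.92% at least 25% higher and 7.12% at least 20% lower with LOXL2 WT, and 7.52% and 4.72% with LOXL2 delta72. Among 22 further targeting and translocation genes, 7 were at least 25% higher and 0 lower with each plasmid, and the median was 0.18 with LOXL2 WT and 0.12 with LOXL2 delta72. The most different were SRP19, an SRP protein, at 0.52 and 0.52, TRAM1, a translocon-associated membrane protein, at 0.50 and 0.45, EMC6, a subunit of the ER membrane protein complex, at 0.42 and 0.45, and HM13, the signal peptide peptidase, at 0.37 and 0.43. Among 11 COPII regulators and tethering genes above the filter, 2 were at least 25% higher with LOXL2 WT and 1 with LOXL2 delta72. By the delta72 difference the Golgi SNARE gene GOSR2 came first, at 0.60 with LOXL2 WT and 0.54 with LOXL2 delta72. YKT6 followed at 0.26 and 0.23, MIA3, which helps to export collagen, at 0.26 and 0.22, and STX5 at 0.11 and 0.22. The other gene counted with LOXL2 WT was MIA2, at 0.35 and -0.00053, named after its values were seen.

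ER chaperones, the luminal partners of these machines, differed more on these arrays. Of 20 chaperone genes listed, 19 had a probe set of their own, all but TXNDC5. Of these 19, 10 were at least 25% higher and 2 lower with LOXL2 WT, and 12 higher and 0 lower with LOXL2 delta72. Their median was 0.33 and 0.53, against 0.059 and 0.067 for the 40 transport genes, and no test of this difference was possible. HSPA5 was at 0.93 and 1.19, DNAJC3 at 0.72 and 0.89, DNAJB11 at 0.79 and 0.89, and PDIA4 at 0.30 and 0.83. All 19 chaperones read higher with LOXL2 delta72 than with LOXL2 WT, beside 50.4% of all genes. Their median was 0.18, where the transport genes had a median of 0.027 and all genes 0.0013. The transport genes with the largest differences from control, SRPRB and SEC11C, lay within the range of the chaperones.

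**Figure D4:**
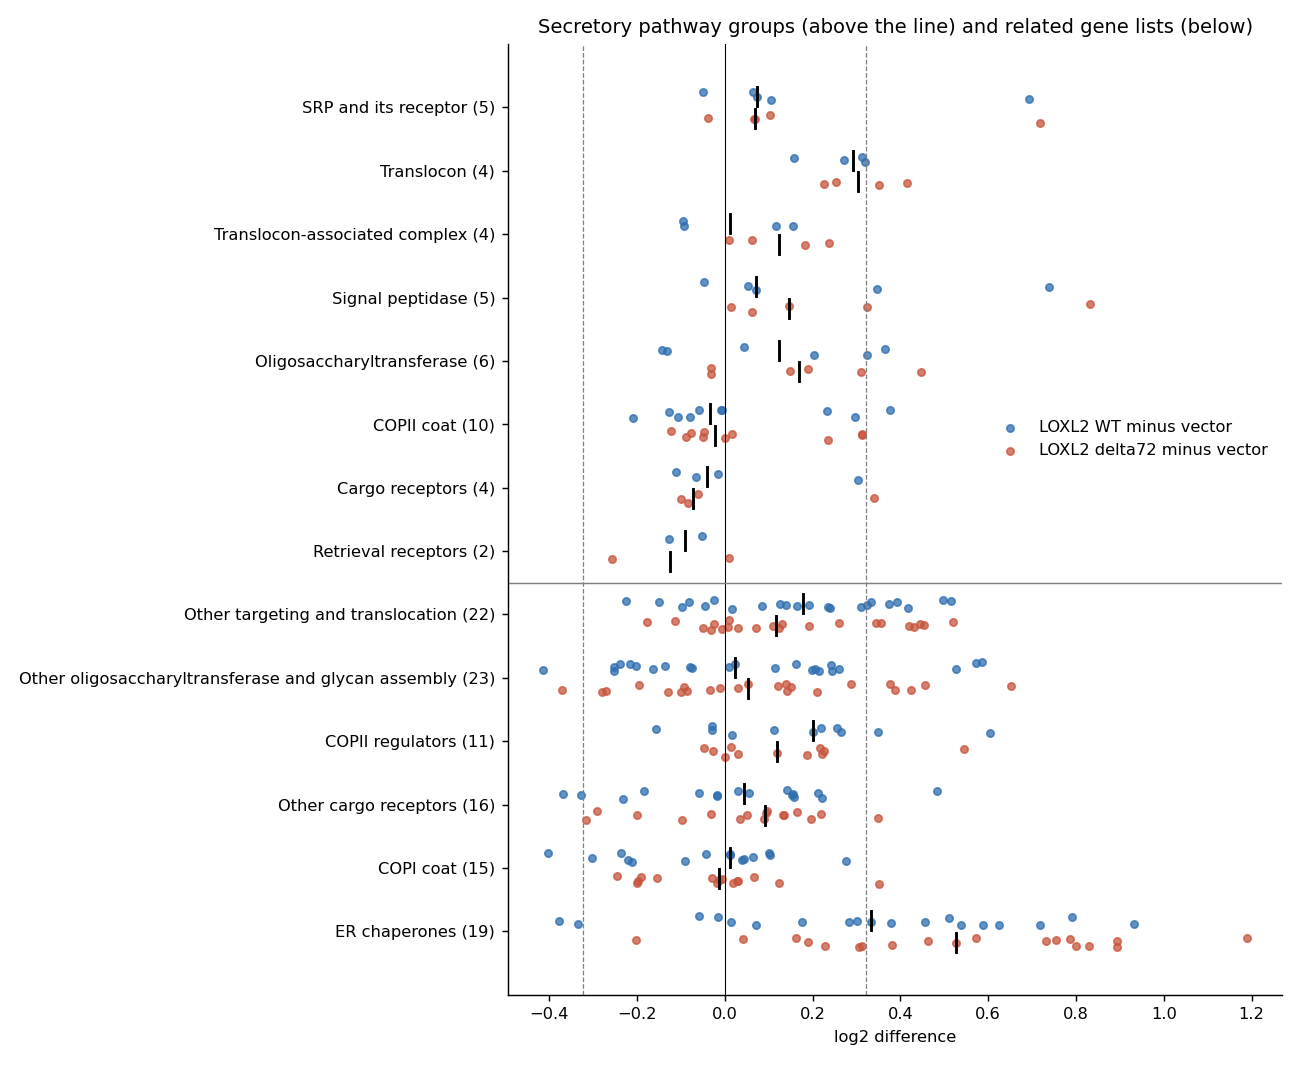
Log2 difference from the vector array (horizontal axis) for LOXL2 WT (blue) and LOXL2 delta72 (red), with 1 point per gene, the median as a black bar and 25% higher and 20% lower as dashed lines. The 8 role groups of secretory genes are above the grey line and 6 lists of related genes below it, with the number of genes in brackets. The translocon has the highest medians of the 8 groups, 0.29 and 0.30, and the ER chaperones at the bottom those of the lists, 0.33 and 0.53.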

How the data were processed

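The authors deposited log2 intensities for 49395 probe sets on 3 Affymetrix 3′ expression arrays. Labelling started from 100 ng of RNA, per the labels' protocols. Software is named as Partek and Affymetrix Expression Console, per the submitters' processing notes, and for the normalization the method is not given in the sources used here. Values were used as deposited. The deposited values lay between 2.07 and 14.56, with array medians of 5.93 to 5.95, and their scaling can hide a change common to most genes.

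With 102 control probe sets set aside, 44988 of 49293 named 1 gene, 1832 named several and 2473 were unlisted. Symbols were checked by Entrez identifier against RefSeq (GRCh38.p14), and 0 changed. Each gene was read by its brightest probe set and kept at the 40th percentile (log2 5.27). Differences were counted at 25% higher, 20% lower and 1.5-fold, with no test; the number of arrays limits the precision. Counting was checked on simulated data. Protein sequences were not used here.

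Values on each array were printed for members past the smaller fold and for the highest and lowest delta72 difference of each role group, and up to 4 genes of each related list were named by size of that difference. The members and lists were chosen with earlier results of these data known. Alternatives were 3 other scalings, 3 other probe set summaries and 2 other filters. Python 3.11.15, pandas 2.3.3 and statsmodels 0.14.6 (lowess fraction 0.3) were used.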

Additional observations from a re-analysis of the deposited data

How the results depend on the processing

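Scaling, probe set choice and the filter were varied over 8 alternatives, of which the median of probe set differences was chosen after seeing the data. With an equal median on the arrays, the median over members was 0.018 with LOXL2 WT and 0.035 with LOXL2 delta72, and 4 genes were at least 25% higher with LOXL2 delta72. The median with LOXL2 delta72 was 0.097 with the median of probe set differences and 0.11 with the median over probe sets. With the median over probe sets, 1 gene was at least 20% lower with LOXL2 WT (KDELR1), and 1 was at least 1.5-fold higher in each comparison with control. With the second brightest probe set, 1 gene was at least 20% lower in each comparison with control, KDELR1 with LOXL2 WT and SEC24B with LOXL2 delta72. In each of these comparisons 1 gene was at least 1.5-fold higher. The remaining 108 of 120 summary values stayed within set limits. For medians the limit was the probe error scaled down to that of a median over the members, and for counts a change of at most 1.5 times. Of 102 values recomputed for members at least 25% higher, 0 changed sign and 15 lay under that size. Of all 453 values recomputed for the 19 members described in full, 39 changed sign. The 2 other filters kept all 40 members and their values, so those among the 120, 102 and 453 values could not move. Nor could the values of genes with 1 probe set under the other probe set summaries. No paired analysis was possible because each condition had 1 array. For the same reason no replicate could be left out.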

Other observations

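Later and side steps of the pathway showed genes on both sides of control. Beside the counts below, 9.92% of all genes were at least 25% higher and 7.12% at least 20% lower with LOXL2 WT, and 7.52% and 4.72% with LOXL2 delta72. Among 23 further glycosylation genes above the filter, 3 were at least 25% higher and 1 lower with LOXL2 WT, and 5 higher and 1 lower with LOXL2 delta72. ALG5, which makes dolichyl-phosphate glucose, was at 0.58 and 0.65, the mannosyltransferase gene ALG2 at 0.53 and 0.46, ALG13 at 0.57 and 0.42, and the oligosaccharyltransferase subunit gene KRTCAP2 at 0.26 and 0.39 (log2 difference from control).

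Among 16 other cargo receptor genes, 1 was at least 25% higher and 2 lower with LOXL2 WT, and 1 higher and 0 lower with LOXL2 delta72. LMAN2L was at 0.48 and 0.35, TMED1 at -0.23 and -0.32, TMED3 at -0.37 and -0.29, and TMED9 at 0.16 and 0.22. Of 15 genes of the COPI coat, which carries vesicles back to the ER, COPA was at 0.28 and 0.35, the GTPase gene ARF1 at -0.40 and -0.25, COPZ2 at -0.30 and -0.20, and COPE at -0.22 and -0.20. In that list 0 genes were at least 25% higher and 1 lower with LOXL2 WT, and 1 higher and 0 lower with LOXL2 delta72.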
